A study of Capra hircus with 2 samples.

Results

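The HOX-cluster miRNAs miR-10a, miR-10b, miR-196a, miR-196b and miR-615 were examined in small RNA libraries of goat testicular cells. Entries were taken whose representative miRNA name, without species prefix, copy number and arm, is one of these 5, and their reads were summed per name and arm (5p or 3p, the 2 sides of the hairpin precursor). This gave 8 arms of the 1808 named arms in the series. All 8 were detected in CD49f-positive cells, against 7 in CD49f-negative cells. Of all 1808 named arms, 1455 were detected in CD49f-positive cells, against 1291 in CD49f-negative cells. The member arm that differed, miR-615-5p, had 1 read in CD49f-positive cells, whose library held 2.67 times as many named reads. The CD49f-positive and CD49f-negative cells were both sorted magnetically from primary testicular cells of 5-month-old Saanen dairy goats, and 3 testes of 3 animals were collected. CD49f is integrin alpha-6, and sorting on it enriches for spermatogonial stem cells. Before the sort, both kinds of cell had been released enzymatically and kept overnight in a dish, and only cells that did not attach went on, a step meant to remove Sertoli and myoid cells. Each group had 1 library, and whether animals were pooled is not stated, so the differences below rest on single libraries and are reported without p-values.

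MicroRNAs (miRNAs) are short RNAs that guide Argonaute proteins to partly complementary sites in messenger RNAs, mainly through the seed, bases 2 to 8. The HOX genes encode homeodomain transcription factors that set position along the body axis, and in mammals they lie in the clusters HOXA, HOXB, HOXC and HOXD. The miR-10 and miR-196 genes sit between HOX genes, and members of both families repress HOX messenger RNAs in vertebrates. In human and mouse miR-615 lies in an intron of HOXC5.

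The mature sequences are shown because the members of each family differ by so little that reads can be shared between them. They are the sequences listed in the deposited files, written as DNA with the seed in capitals. The same sequence was listed in both libraries for each of these 6 arms:
miR-10a-5p: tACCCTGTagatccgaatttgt
miR-10b-5p: tACCCTGTagaaccgaatttgt
miR-196a-5p: tAGGTAGTttcatgttgttgg
miR-196b-5p: tAGGTAGTttcctgttgttgg
miR-10a-3p: cAAATTCGtatctaggggaat
miR-10b-3p: aCAGATTCgattctaggggaat

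The 5p arms of miR-10a and miR-10b share the seed ACCCTGT and differ at 1 of 22 bases. Counted from 1 at the 5′ end, that difference is T12A from miR-10a-5p to miR-10b-5p. The 5p arms of miR-196a and miR-196b share the seed AGGTAGT and also differ at 1 base, A12C from miR-196a-5p to miR-196b-5p, over 21 bases. In both families the difference lies at position 12, outside the seed. The 3p arms of miR-10a and miR-10b end in the same 11 bases but have different seeds.

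The hairpins show where each arm lies, with the listed arms in capitals, in the orientation of the miRNA. Coordinates are those of the deposited files, whose goat genome build is not given in the sources used here. The mir-10a hairpin lies on the plus strand of chromosome 19 (chr19:37059133-37059253) and mir-10b on the minus strand of chromosome 2 (chr2:20085772-20085875). The miR-196a sequence comes from a hairpin on the plus strand of chromosome 19 (mir-196a-1, chr19:37007795-37007896) and another on the minus strand of chromosome 5 (mir-196a-2, chr5:25306908-25307017):
mir-10a: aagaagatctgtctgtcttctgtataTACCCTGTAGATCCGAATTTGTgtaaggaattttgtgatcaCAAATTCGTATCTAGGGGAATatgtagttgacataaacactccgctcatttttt
mir-10b: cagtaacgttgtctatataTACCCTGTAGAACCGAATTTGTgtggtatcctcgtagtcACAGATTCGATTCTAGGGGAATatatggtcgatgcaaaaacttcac
mir-196a-1: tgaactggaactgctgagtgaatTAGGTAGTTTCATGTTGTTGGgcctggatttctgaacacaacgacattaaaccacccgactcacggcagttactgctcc
mir-196a-2: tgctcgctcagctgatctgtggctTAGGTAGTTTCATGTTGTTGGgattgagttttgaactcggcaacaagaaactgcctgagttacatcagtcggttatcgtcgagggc

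The mir-196b hairpin lies on the plus strand of chromosome 4 (chr4:66398289-66398373). Another goat assembly, ARS1.2, was used for gene order only. RefSeq's annotation of it lists MIR10A between HOXB5 and HOXB3, MIR196A between HOXB13 and HOXB9, MIR10B between HOXD8 and HOXD3, and MIR196B between HOXA9 and HOXA10, the nearest HOX genes it lists. In the deposited coordinates mir-196a-1 and mir-10a are separated by 51236 bases, so both belong to the HOXB region. In human and mouse the second miR-196a gene lies in the HOXC cluster. No other miRNA entry, named or unnamed, was listed within 200 kb of any of these 5 hairpins in either library.

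Reads with a miRNA name totalled 8196507 for CD49f-positive cells, against 3064462 for CD49f-negative cells, a ratio of 2.67. Levels are in RPM, reads per 1000000 reads of these totals, with exact 95% binomial (Clopper-Pearson) intervals. These cover counting error only, and not differences between animals, sorts or libraries, since each group had 1 library. Reads amplified by PCR without molecular identifiers are not independent molecules, so the intervals may be too narrow even for counting error. CD49f itself is not measured by a miRNA library, so the sort could not be checked. Of the marker miRNAs, the 3 names of meiotic and post-meiotic germ cells (miR-34b, miR-34c and miR-449a) together held 2.25% of reads in CD49f-positive cells, against 11.4% in CD49f-negative cells, and none was at 0. All 6 of their arms were at least 2-fold lower in CD49f-positive cells. By the call rule given below, so were 24.8% of all 298 tested arms, while 2.01% were higher. In such bulk samples fewer cells of a type and less RNA per cell cannot be told apart, and the part of germ cell content in the results below was not tested.

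miR-10b-5p made up most of the group. It had 1112386 reads in the CD49f-positive library, or 135715 RPM (interval 135480 to 135949), against 231428.5 reads in the CD49f-negative library, or 75520 RPM (75225 to 75817). It was the third most abundant arm of the CD49f-positive library and the fifth of the CD49f-negative library. The level was thus 1.80-fold higher in CD49f-positive cells, a log2 ratio of 0.85 (0.84 to 0.85). Its rank from the highest ratio was 11 among the 298 arms with at least 100 summed reads.

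miR-10a-5p went the other way. It had 33485.5 reads in the CD49f-positive library, or 4085 RPM (4042 to 4129), against 27753.5 reads in the CD49f-negative library, or 9057 RPM (8951 to 9163). Its rank among all arms was 22 in the CD49f-positive and 13 in the CD49f-negative library. The log2 ratio was -1.15 (-1.17 to -1.13), which is 2.22-fold lower in CD49f-positive cells. The fractional counts arise because reads that match several hairpins were divided between them.

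**Figure D1:**
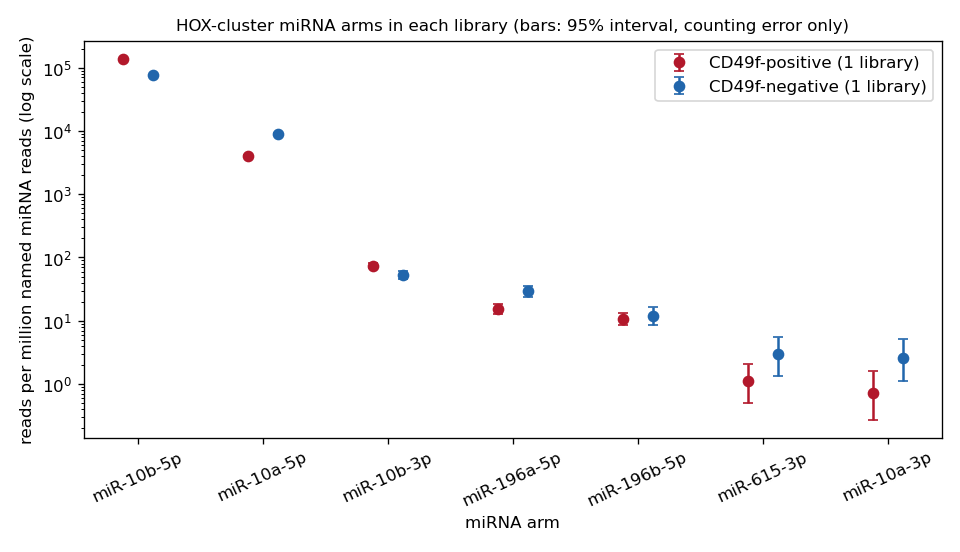
RPM of named miRNA reads (log axis) of 7 arms in the CD49f-positive (red) and CD49f-negative (blue) library, with 95% intervals for counting error. miR-10b-5p stands at 135715 RPM in CD49f-positive cells, against 75520 in CD49f-negative cells, miR-10a-5p at 4085 in CD49f-positive cells, against 9057 in CD49f-negative cells, and the miR-196 arms between 10.6 and 29.0.

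An arm was called higher or lower when it had at least 100 summed reads, a level differing at least 2-fold and an interval that excluded equal levels. Of the 5 member arms with at least 100 reads, 1 was called, miR-10a-5p, and it was lower. By the same rule 24.8% of all 298 tested arms were lower, 2.01% were higher and 26.8% were called either way. A rank of 67 from the lowest ratio puts miR-10a-5p among many miRNAs with lower levels in CD49f-positive cells. The 5 arms had a median log2 ratio of -0.20, and all 298 arms one of -0.43.

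These calls depend on the scaling. With edgeR's TMM factors every log2 ratio shifted upward by 0.44, so miR-10b-5p became 1.29 and was called higher, as were 9.06% of the tested arms, while miR-10a-5p became -0.70 and lost its call, with 13.4% of arms called lower. DESeq2's median of ratios added 0.60, so that 11.4% of arms were called higher and 9.4% lower. There miR-10b-5p (1.45) and miR-10b-3p (1.09) were called higher, and miR-10a-5p (-0.55) was not called. The signs of miR-10b-5p, miR-10b-3p, miR-10a-5p and miR-196a-5p were the same under all 13 alternatives tried, while miR-196b-5p changed sign under 4 of them. Other read minimums and the 4-fold rule leave every log2 ratio as it was, so these could not change a sign. TMM, the median of ratios and totals without the 10 most abundant arms or without the members shifted every ratio upward. These could therefore not make miR-10b-5p or miR-10b-3p negative. Adding 5 reads or keeping known hairpins only hardly moved miR-10b-5p (0.85 and 0.84) or miR-10a-5p (-1.15 and -1.16). Dividing the reads that match several hairpins otherwise could not move miR-10b-3p or miR-196a-5p. Over the listed sequence alone, miR-196a-5p stood at -0.05, with an interval from -0.81 to 0.82.

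**Figure D2:**
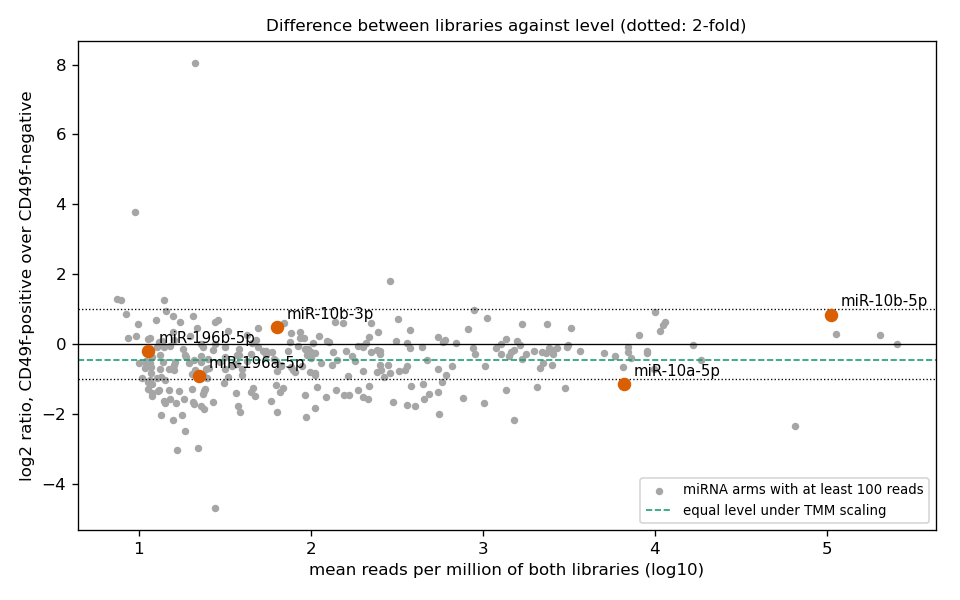
Log2 of the level in CD49f-positive over that in CD49f-negative cells against the mean level (log10 RPM) for the 298 arms with at least 100 reads, with the 5 member arms in orange. miR-10b-5p lies above 0 at 0.85 and miR-10a-5p below it at -1.15, while the dashed line marks equal levels under TMM scaling.

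The ratio of miR-10b-5p to miR-10a-5p within a library does not depend on how the libraries are scaled. In the CD49f-positive library there were 33.2 reads of miR-10b-5p for each read of miR-10a-5p, and in the CD49f-negative library 8.34. The ratio was therefore 3.98 times higher in CD49f-positive cells (exact conditional interval 3.92 to 4.05, counting error only). Summed by HOX cluster over the placed hairpins, HOXD, which holds mir-10b, gave 97.1% of the member reads in the CD49f-positive library, against 89.3% in the CD49f-negative library. HOXB, which holds mir-10a and mir-196a-1, gave 2.93% in CD49f-positive cells, against 10.7% in CD49f-negative cells.

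Reads that fit both hairpins could affect this ratio, because 1 base separates the arms. The files give each hairpin's whole read number beside the reads divided among hairpins, so the reads passed on to other hairpins can be computed. mir-10a passed on 332.5 reads in the CD49f-positive library, against 1143.5 in the CD49f-negative library, while mir-10b passed on 327.5 in CD49f-positive cells, against 1138.5 in CD49f-negative cells. The reads passed on by mir-10a equal 0.993% of those it kept in CD49f-positive cells, against 4.12% in CD49f-negative cells. Giving all shared reads to miR-10b, on the assumption of equal division, changed the ratio of ratios to 3.84 (3.78 to 3.91), and giving them all to miR-10a changed it to 4.13 (4.06 to 4.19).

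Reads without any mismatch gave 35.8 reads of miR-10b-5p per miR-10a-5p read in the CD49f-positive library, against 9.16 in the CD49f-negative library, 3.91 times higher (3.83 to 3.98). The listed sequences printed above, counted alone, gave 50.5 in CD49f-positive cells, against 11.99 in CD49f-negative cells, 4.21 times higher (4.11 to 4.32). The ratio was higher in the CD49f-positive library under each of these ways of counting.

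**Figure D3:**
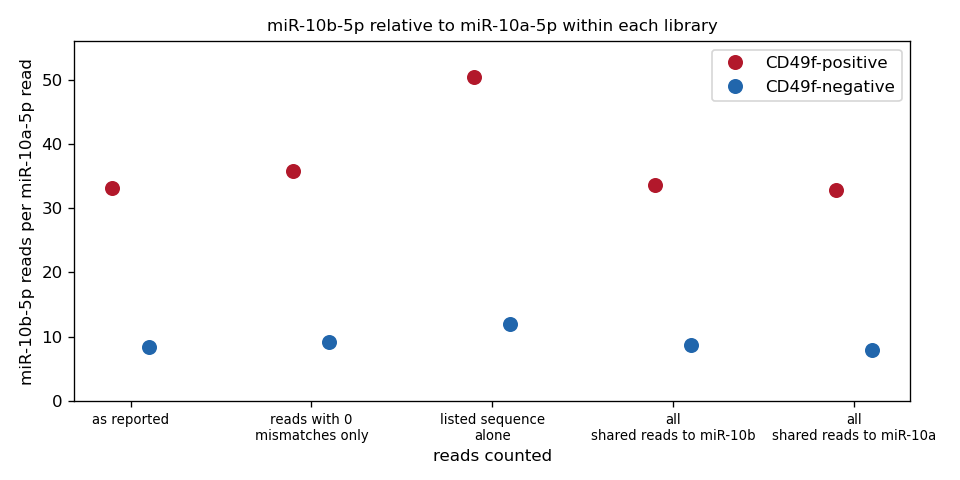
Number of miR-10b-5p reads for each miR-10a-5p read in the CD49f-positive (red) and CD49f-negative (blue) library under 5 ways of counting. Values range from 32.9 to 50.5 in the CD49f-positive library and from 7.97 to 11.99 in the CD49f-negative library.

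The 3p arms, often called passenger strands in these hairpins, were rare. miR-10b-3p had 609 reads in the CD49f-positive library, or 74.3 RPM, against 162 in the CD49f-negative library, or 52.9 RPM. Its log2 ratio of 0.49 (0.24 to 0.75) had the same sign as that of miR-10b-5p and did not reach 2-fold. The 5p arm outnumbered the 3p arm 1827 to 1 in CD49f-positive cells, against 1429 to 1 in CD49f-negative cells. The 3p share was 0.0547% in CD49f-positive cells (0.0505 to 0.0592), against 0.0700% in CD49f-negative cells (0.0596 to 0.0816), and these intervals lay side by side without overlap.

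miR-10a-3p had 6 reads or 0.732 RPM in CD49f-positive cells, against 8 reads or 2.61 RPM in CD49f-negative cells, too few for a call. Of the 8 reads in the CD49f-negative library, 4 came from an entry on chromosome 8, away from the mir-10a hairpin. At the hairpin itself there were 6 reads in CD49f-positive cells, against 4 in CD49f-negative cells. The 3p arms do not share the near-identity of the 5p arms, and miR-10b-3p outnumbered miR-10a-3p at the known hairpins 101.5 to 1 in the CD49f-positive and 40.5 to 1 in the CD49f-negative library. Over all entries, the one on chromosome 8 included, the ratio of ratios was 5.01 (1.497 to 17.7). At the known hairpins alone it was 2.51 (0.513 to 10.7), an interval that includes equal ratios. Only with the 4 reads from chromosome 8 did the interval exclude equal ratios, and miR-10a-3p had too few reads to decide.

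**Figure D4:**
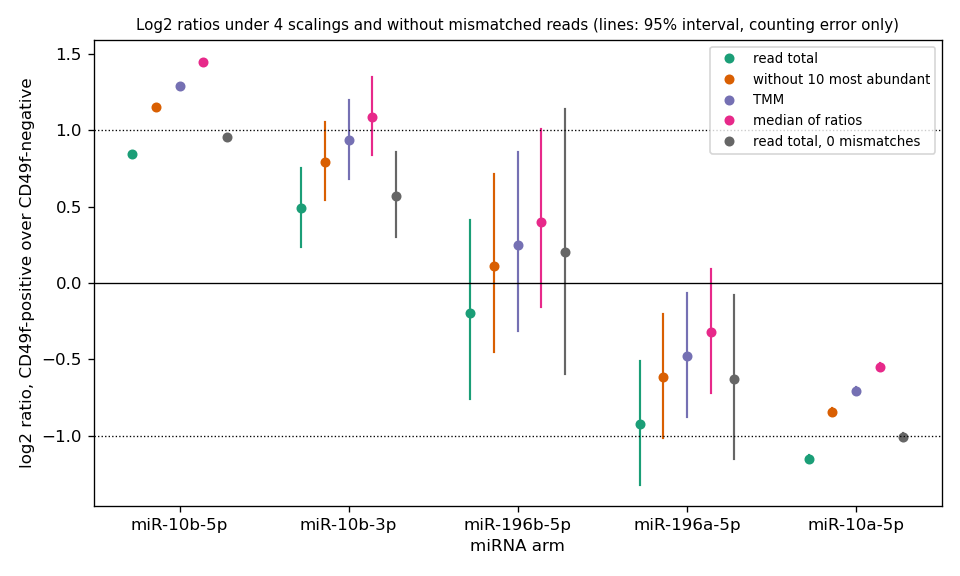
Log2 of the level in CD49f-positive over that in CD49f-negative cells of the 5 tested member arms under 4 scalings and over reads without mismatch, with 95% intervals for counting error and dotted lines at 2-fold. miR-10b-5p runs from 0.85 to 1.45, miR-10a-5p from -1.15 to -0.55, and miR-196b-5p lies on both sides of 0.

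The miR-196 family was present at much lower levels. miR-196a-5p had 126 reads in the CD49f-positive library, or 15.4 RPM (12.8 to 18.3), against 89 in the CD49f-negative library, or 29.0 RPM (23.3 to 35.7). Its log2 ratio was -0.92 (-1.32 to -0.51) and -0.32 with the median of ratios, where the interval included 0 (-0.72 to 0.09). No reads of its 3p arm were listed, and a count of 0, with 3 reads taken as its upper limit, allows up to 0.366 RPM in CD49f-positive cells, against 0.979 RPM in CD49f-negative cells. Outside the goat hairpins lay 1 of its reads in CD49f-positive cells, against 3 in CD49f-negative cells.

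The mature miR-196a sequence is the same at both hairpins, and most reads could not be assigned to either. Of the reads at the hairpins, 110 of 125 (88.0%) fitted both in CD49f-positive cells, against 72 of 86 (83.7%) in CD49f-negative cells. Of the reads that fitted 1 hairpin, those of mir-196a-2 on chromosome 5 were 14 of 15 in CD49f-positive cells, or 93.3% (68.1 to 99.8), against 12 of 14 in CD49f-negative cells, or 85.7% (57.2 to 98.2). The intervals overlap. The deposited split between mir-196a-1 and mir-196a-2, 56 to 69 reads in CD49f-positive cells, against 38 to 48 in CD49f-negative cells, therefore says little of which HOX cluster the shared reads came from.

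miR-196b-5p had 87 reads in the CD49f-positive library, or 10.6 RPM (8.50 to 13.1), against 37 in the CD49f-negative library, or 12.1 RPM (8.50 to 16.6). The log2 ratio of -0.20 had an interval from -0.76 to 0.41, and TMM turned it to 0.25. Unlike the other hairpins, mir-196b passed on 0 reads in both libraries, so its reads were not divided with miR-196a. There were 0.690 reads of miR-196b-5p per miR-196a-5p read in CD49f-positive cells, against 0.416 in CD49f-negative cells, 1.66 times higher (1.01 to 2.75). At the known hairpins alone the interval was 0.985 to 2.68, and over reads without mismatch it was 0.897 to 3.77, and both intervals include an equal ratio.

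miR-196a-5p and miR-10a-5p, both with a hairpin in the HOXB region, had log2 ratios of -0.92 for miR-196a-5p and -1.15 for miR-10a-5p. There were 265.8 reads of miR-10a-5p per miR-196a-5p read in CD49f-positive cells, against 311.8 in CD49f-negative cells, 0.852 times as many (0.642 to 1.13). That interval includes 1 and does not show that they move together, and an unknown part of the miR-196a reads came from chromosome 5. miR-10b-5p numbered 12786 reads per miR-196b-5p read in CD49f-positive cells, against 6255 in CD49f-negative cells, 2.04 times higher (1.35 to 3.04). Reads of miR-196b-5p without mismatch numbered 53 in CD49f-positive cells, against 16 in CD49f-negative cells, and over such reads the ratio of ratios was 1.65 (0.879 to 2.93).

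miR-615 was close to the limit of detection. Its 3p arm had 9 reads in each library, or 1.10 RPM in CD49f-positive cells, against 2.94 RPM in CD49f-negative cells. Its 5p arm had 1 read in the CD49f-positive library, against 0 in the CD49f-negative library, where the same limit of 3 reads allows up to 0.979 RPM and the exact interval reaches 1.204 RPM. None of the miR-615 entries was placed on the goat genome. The interval of the log2 ratio of miR-615-3p, -2.93 to 0.09, included equal levels.

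The listed 5p sequences of all 4 miR-10 and miR-196 names were shorter at the 3′ end than the cattle sequence they were matched to. miR-10a-5p, miR-10b-5p and miR-196a-5p lacked 1 base and miR-196b-5p lacked 2, in both libraries. The 3p arms matched their references in length. Among all entries at known hairpins with at least 100 reads, those shorter at that end made up 30.4% of 227 in CD49f-positive cells, against 34.2% of 187 in CD49f-negative cells. The listed sequence made up 66.5% of the miR-10b-5p reads in CD49f-positive cells, against 59.9% in CD49f-negative cells, and 43.8% of the miR-10a-5p reads in CD49f-positive cells, against 41.7% in CD49f-negative cells.

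Reads with a mismatch were less common in the CD49f-positive library. They made up 7.83% of miR-10b-5p reads in the CD49f-positive library, against 18.8% in the CD49f-negative library, and 14.4% of miR-10a-5p reads in CD49f-positive cells, against 26.0% in CD49f-negative cells. Most miRNAs showed this, and its part in the results was tested only by counting reads without mismatch. Of 119 arms with at least 500 reads in each library, 110 had a higher mismatched share in the CD49f-negative library, and the medians were 18.3% in CD49f-positive cells, against 25.6% in CD49f-negative cells. The gaps of miR-10a-5p and miR-10b-5p ranked 8 and 10 of 119. Over reads without mismatch the log2 ratios were 0.96 for miR-10b-5p and -1.01 (-1.04 to -0.98) for miR-10a-5p, which kept its call by a narrow margin.

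**Figure D5:**
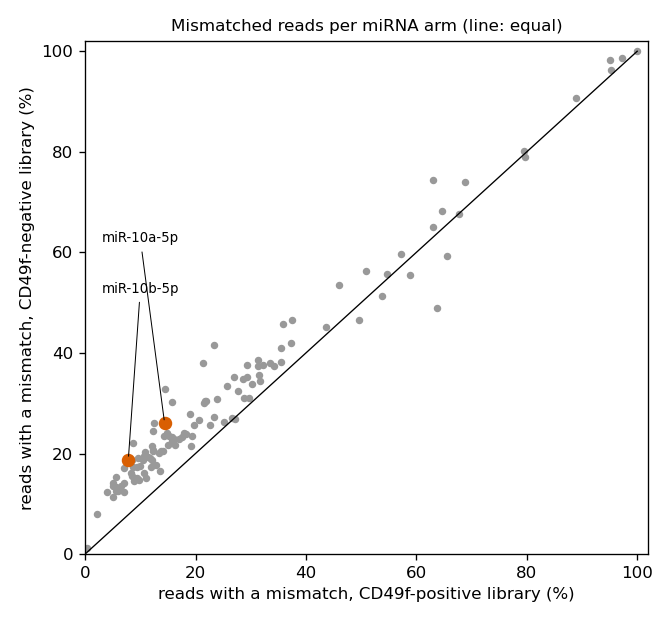
Share of reads with at least 1 mismatch per arm, in percent, in the CD49f-positive (x axis) and CD49f-negative (y axis) library for 119 arms with at least 500 reads in each. Most points lie above the line of equal shares, miR-10b-5p at 7.83% in CD49f-positive cells, against 18.8% in CD49f-negative cells, miR-10a-5p at 14.4% in CD49f-positive cells, against 26.0% in CD49f-negative cells.

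The miR-99/100 miRNAs are relatives of miR-10, with a different seed. miR-100-5p, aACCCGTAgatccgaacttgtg in its reference sequence, shares a run of 11 bases, gtagatccgaa, with miR-10a-5p. Of the 6 arms of miR-99a, miR-99b and miR-100, 3 had at least 100 reads, and none was called, against 26.8% of all 298 tested arms. The log2 ratios of these 3 relatives were 0.28 for miR-99a-5p, -0.19 for miR-99b-5p and 0.00 for miR-100-5p, which made up 25.4% of reads in each library. Most miR-100-5p reads carried a mismatch, 58.8% in CD49f-positive cells, against 55.5% in CD49f-negative cells.

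Among 138 other arms with at least 1000 summed reads, those whose log2 ratios lay nearest to that of miR-10b-5p were miR-126-3p at 0.92, miR-181a-5p at 0.76 and miR-224-5p at 0.73. miR-126 is abundant in endothelial cells. Nearest to miR-10a-5p were miR-340-5p at -1.13, miR-5105-5p at -1.19 and miR-1260-5p at -1.20. These neighbours rest on 2 libraries and describe them only.

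Most marker arms of other cell types were not called, and the same held for all tested arms, of which 24.8% were called lower and 26.8% either way. The endothelial miR-126 arms summed to 1.43% of reads in CD49f-positive cells, against 0.755% in CD49f-negative cells, and 0 of 2 arms were called. The smooth muscle and myoid miRNAs miR-143 and miR-145 summed to 22.6% in CD49f-positive cells, against 18.9% in CD49f-negative cells, with 1 of 4 arms lower. The Sertoli miRNA miR-202 summed to 0.0320% in CD49f-positive cells, against 0.0823% in CD49f-negative cells, with 1 of 2 arms lower. Red blood cell miRNAs held 0.296% in CD49f-positive cells, against 0.372% in CD49f-negative cells. White blood cell miRNAs held 0.0112% in CD49f-positive cells, against 0.0191% in CD49f-negative cells, and epithelial miRNAs 0.00316% in CD49f-positive cells, against 0.00933% in CD49f-negative cells. Of the 6 red cell, 6 white cell and 8 epithelial arms with reads, only 3, 3 and 1 had at least 100 summed reads. Among those tested arms, 0 red cell, 0 white cell and 1 epithelial arm were called, the epithelial one lower. No marker name of any list was at 0 in either library. The part of these cell types in the miR-10 differences was not tested.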

How the data were processed

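Illumina TruSeq small RNA libraries were sequenced, per the labels' protocols. Per the file headers and the deposited column description, reads had been matched to mammalian miRBase hairpins, a goat genome and expressed sequences. Which aligner, miRBase release and build were used is not given in the sources used here. The deposited read numbers of each arm are expected counts, since the authors divided reads that fit several hairpins. Copies of each listed sequence are whole counts, and GC content (unused here) is a percent per the file headers. The deposited values carry no normalization.

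Reads were summed per name and arm. Entries named without an arm were given the arm with most reads of that name in both libraries. Known hairpins are entries whose miRBase precursor itself was also placed on the goat genome or expressed sequences. Unnamed entries, 0.555% of CD49f-positive and 0.611% of CD49f-negative reads, were left out. Ratios are CD49f-positive over CD49f-negative shares of named reads, with 0.5 reads added. Their 95% intervals are exact conditional binomial intervals of counts rounded to whole reads. Ratios of ratios use exact conditional odds ratio intervals. All members were named. Neighbours by ratio were the 3 nearest arms with at least 1000 summed reads. Members, lists and tests were chosen with earlier results of these data known, and the ratios involving miR-196 and the division of shared reads after their values were seen.

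TMM factors came from edgeR 4.0.16 and size factors from DESeq2 1.42.0 (R 4.3.3), over arms with at least 10 summed reads. Both supplied scaling only. The remaining work was done in Python 3.11.15 with SciPy 1.17.1, pandas 2.3.3, numpy 2.4.6 and, for figures, matplotlib 3.10.9. The ratio and call calculation was tested on simulated counts that varied by counting error only. That test does not cover differences between libraries or PCR duplicates.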

Additional observations from a re-analysis of the deposited data

How the results depend on the processing

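The miR-10a-5p call was lost with TMM (-0.70), the median of ratios (-0.55), a total without the 10 most abundant arms (-0.84) and a 4-fold rule (-1.15, value as before). miR-10b-5p gained a call with the same scalings (1.29, 1.45 and 1.15). miR-196b-5p turned above 0 with them (0.25, 0.40 and 0.11) and over reads without mismatch (0.21). TMM's own shift was 0.34 over arms with at least 100 reads, 0.44 with at least 10 and 0.82 with no minimum. The number of member arms called moved to 2 with the median of ratios and to 0 with the 4-fold rule. It was also 2 with a minimum of 10 reads and with none, where miR-10a-3p, with 14 summed reads, was called lower beside miR-10a-5p. Of its 8 reads in the CD49f-negative library, 4 came from the entry on chromosome 8, away from the hairpin. The number of all arms called was 80 of 298 tested, against 169 of 592 with a minimum of 10 reads and 206 of 1808 with none. It was 13 of 298 with the 4-fold rule. At known hairpins only it was 53, of which 51 were lower and 2 higher. The number of arms tested there is not given here, so 53 cannot be read as a share. The log2 ratio of miR-10b-5p over miR-10a-5p stayed between 1.94 and 2.07 under its 5 alternatives. Depth limits miR-196, miR-615 and miR-10a-3p. No paired analysis was possible because each group had 1 library.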
